A study of Neotoma stephensi and Rattus norvegicus with 6 samples.

Results

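Desmosomes are the spot-like junctions that hold neighbouring epithelial cells together and anchor their keratin filaments. Desmogleins (Dsg) and desmocollins (Dsc) are cadherins that bridge the gap between cells, plakoglobin (Jup) and the plakophilins (Pkp) are armadillo-repeat proteins that form the plaque under the membrane, and desmoplakin (Dsp) links the plaque to keratin. In a keratinized stratified epithelium such as the rodent forestomach, these junctions are built in every living layer, and the cadherin forms are known to shift between the basal and the upper layers.

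The 10 desmosome components examined here, chosen by gene symbol, were Dsp, Jup, Pkp1, Pkp2, Pkp3, Dsg2, Dsg3, Dsc2, Dsc3 and Perp. All 10 were among the 15481 mouse gene identifiers counted, and all 10 were among the 12603 genes that passed the filter on low counts (at least 1 CPM, that is 1 count per 1000000, in at least 3 animals). Pkp2 passed this filter only through the woodrats.

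RNA-Seq counts came from the fornix ventricularis of the stomach, the nonglandular foregut region, of 3 Stephens' woodrats (Neotoma stephensi) and 3 lab rats (Rattus norvegicus, Sprague Dawley). All 6 animals were female, and the sample labels call them virgin, although by the study's methods the breeding history of the wild animals was unknown. The woodrats were caught in the wild and fed juniper foliage, whereas the lab rats were purchased, kept on standard chow and housed in a room with woodrats, so species, origin and diet cannot be told apart. Ages were not given in the sources used here. Reads of both species were aligned to mouse transcripts, so divergence of a gene from mouse can change its count. The comparison asked which transcripts differ between a species with a dense foregut microbial community and a species without one.

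Each animal had between 5439642 and 7932637 counted reads, and 3 reads corresponded to between 0.355 and 0.586 CPM after normalization by the trimmed mean of M-values (TMM). The labelled tissue was checked against marker genes. The 10 markers of squamous epithelium summed to between 25752 and 73610 CPM in the woodrats and between 77793 and 100527 CPM in the lab rats. Krt1 and Krt10 carried the lab rat sum, with means of 31670 and 33977 CPM against 5597 and 6979 CPM in the woodrats. Krt4 went the other way, with means of 9556 CPM in the woodrats and 945 CPM in the lab rats. It was the only 1 of the 10 that was called (FDR = 0.00626, edgeR quasi-likelihood test). Of the 10 log2 fold changes, 4 were positive and 6 negative. The 7 counted markers of glandular stomach summed to between 6.74 and 11.5 CPM in all animals, with Pgc, Gkn1, Muc6 and Tff2 at 0 or 1 read each and Gkn2 at 9, 0 and 1 reads in the woodrats and 0 in each lab rat. Within that sum Atp4a, with 31 to 67 reads, was not called, whereas Muc5ac, a mucin of gastric surface cells, had 17, 12 and 33 reads in the woodrats and 0 in each lab rat and was called higher in the woodrats (FDR = 0.00305, edgeR quasi-likelihood test). Like Pkp2, Muc5ac passed the filter on low counts only through the woodrats. The 8 counted smooth muscle markers summed to 113740, 56246 and 35941 CPM in the woodrats 1, 2 and 3 and to between 9912 and 17739 CPM in the lab rats, with 3 of the 8 called higher in the woodrats. In such bulk tissue, fewer cells of a type and less RNA per cell cannot be told apart. Of all 12603 tested genes, 20.0% were called at a false discovery rate (FDR) below 0.01.

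Of the 10 desmosome components, only Pkp2 differed between the species at this threshold. It was higher in the woodrats, against a background of 10.3% of tested genes called in that direction. No component was lower in the woodrats at this threshold (edgeR quasi-likelihood test), against a background of 9.71%. At an unadjusted p below 0.05 in the same test, 0 components were lower, beside 2989 of all 12603 tested genes. Under DESeq2, 0 components were lower at an FDR below 0.01 and 1 was lower at an unadjusted p below 0.05. The other 9 components had wide intervals, and the 3 woodrats differed strongly from one another. The median log2 fold change of the 10 components was -0.60 toward lab rats, beside 0.03 for all tested genes. The single call among 10 was close to the share of all tested genes called in that direction.

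**Figure D1:**
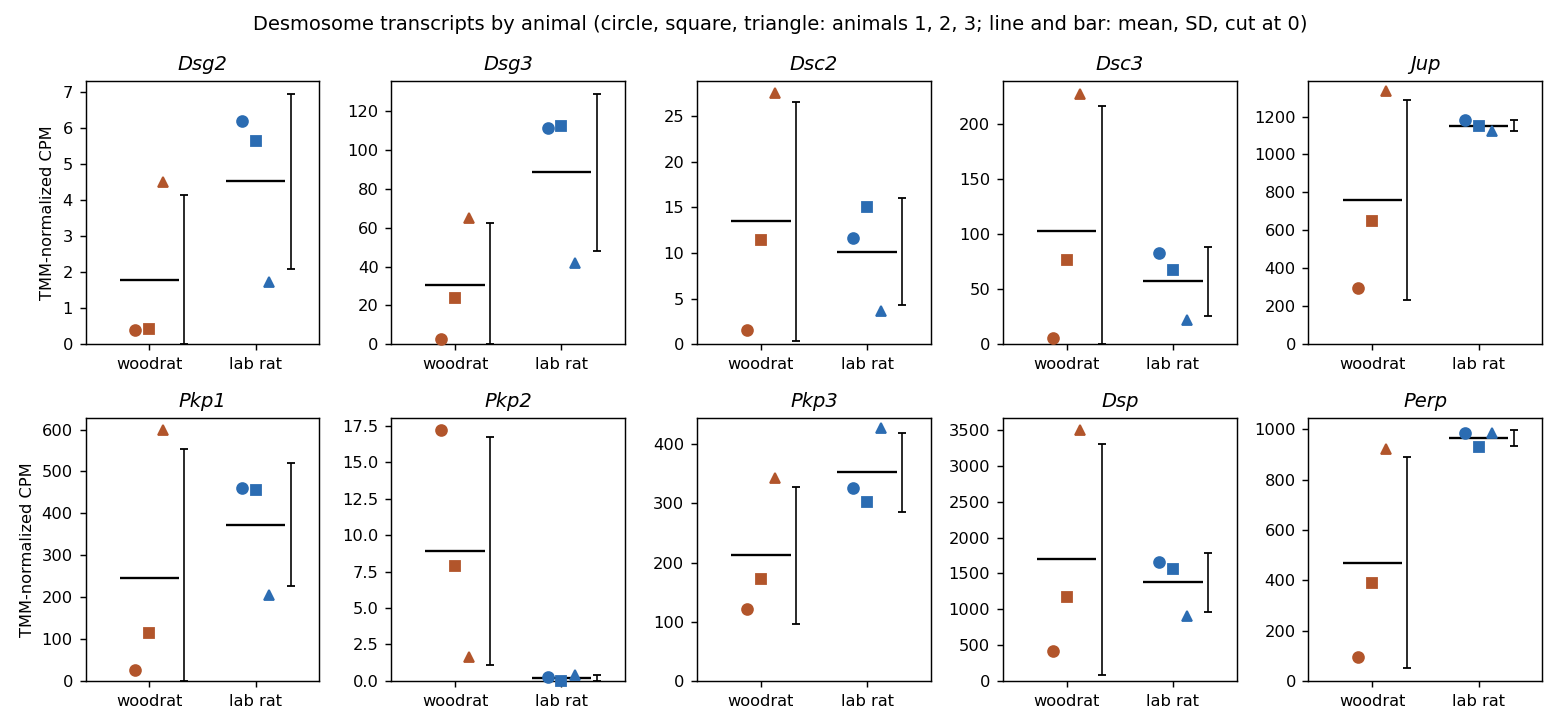
TMM-normalized CPM (y axis, linear, from 0, each panel with its own scale) of the 10 desmosome transcripts in the 3 woodrats and 3 lab rats, with circles, squares and triangles for animals 1, 2 and 3, lines for means and bars for SDs, cut at 0. The woodrat triangle is the highest woodrat and the woodrat circle the lowest in every panel except that of Pkp2, where the order is turned around.

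Desmogleins form one of the 2 cadherin families of the junction. Dsg3 (ENSMUSG00000056632.7), the form best known from the lower layers of skin and oral epithelium and as a target of pemphigus autoantibodies, had 2.93, 23.7 and 65.1 CPM in the woodrats 1, 2 and 3 and 112, 112 and 41.6 CPM in the lab rats 1, 2 and 3. Woodrats 1 and 2 lay below every lab rat, and woodrat 3 lay between lab rat 3 and the other two. The mean was 30.6 ± 31.7 CPM (SD, n = 3) in the woodrats and 88.5 ± 40.6 CPM (SD, n = 3) in the lab rats. Its log2 fold change of -1.52 (standard error 0.83, 95% interval from -3.42 to 0.37) had an FDR of 0.175 in the edgeR quasi-likelihood test.

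Dsg2 (ENSMUSG00000044393.14), the desmoglein of simple epithelia and heart, was close to the limit of detection. Woodrats 1, 2 and 3 had 2, 3 and 38 reads and lab rats 1, 2 and 3 had 50, 34 and 9 reads, which is 0.391, 0.416 and 4.50 CPM against 6.20, 5.62 and 1.73 CPM. Woodrats 1 and 2 were at or below the level of 3 reads, while woodrat 3 lay inside the range of the lab rats. The log2 fold change was -1.28 (standard error 0.87, 95% interval from -3.26 to 0.69, FDR = 0.265, edgeR quasi-likelihood test). Without woodrat 3 it was -3.44 with an FDR of 0.00870, a call that rests on the 2 and 3 reads of the woodrats that remained.

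Desmocollins are the partner cadherins of the desmogleins. Dsc3 (ENSMUSG00000059898.8), the basal and lower suprabasal form in stratified epithelia, had 5.27, 76.8 and 228 CPM in the woodrats 1, 2 and 3 and 82.5, 67.5 and 22.0 CPM in the lab rats 1, 2 and 3. The woodrats enclosed the whole range of the lab rats. Means were 103 ± 114 CPM (SD, n = 3) in the woodrats and 57.3 ± 31.5 CPM (SD, n = 3) in the lab rats, and the log2 fold change was 0.85 (standard error 0.98, 95% interval from -1.37 to 3.07, FDR = 0.512, edgeR quasi-likelihood test).

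Dsc2 (ENSMUSG00000024331.10), the most widely expressed desmocollin across epithelia and also that of the heart, showed the same layout at a low level. The woodrats had 1.56, 11.4 and 27.5 CPM, from 8, 82 and 232 reads, and the lab rats 11.7, 15.1 and 3.66 CPM, from 94, 91 and 19 reads. Its log2 fold change was 0.42 (standard error 0.82, 95% interval from -1.44 to 2.29, FDR = 0.709, edgeR quasi-likelihood test). For both desmocollins the sign turned negative without woodrat 3, to -0.48 for Dsc3 and -0.62 for Dsc2.

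Plakoglobin (Jup, ENSMUSG00000001552.13) binds the tails of the desmosomal cadherins and can also take the place of beta-catenin at adherens junctions. It had 296, 649 and 1332 CPM in the woodrats 1, 2 and 3 and 1184, 1150 and 1124 CPM in the lab rats 1, 2 and 3. The lab rats were nearly identical, and the woodrats ran from far below them to above them. The means of 759 ± 527 CPM in the woodrats and 1152 ± 30.2 CPM in the lab rats (SD, n = 3 each) gave a log2 fold change of -0.60 (standard error 0.50, 95% interval from -1.73 to 0.53, FDR = 0.359, edgeR quasi-likelihood test).

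Plakophilins bind desmoplakin and cluster the cadherins. Pkp1 (ENSMUSG00000026413.11), the plakophilin of the suprabasal layers of stratified epithelia, had 26.6, 115 and 598 CPM in the woodrats and 460, 455 and 205 CPM in the lab rats. Woodrat 3 was the highest of the 6 animals and the other woodrats were the lowest. Its log2 fold change was -0.60 (standard error 0.89, 95% interval from -2.62 to 1.43, FDR = 0.620, edgeR quasi-likelihood test).

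Pkp3 (ENSMUSG00000054065.10), which is present throughout stratified and simple epithelia, varied least between the woodrats, with 121, 173 and 343 CPM against 327, 302 and 428 CPM in the lab rats. Woodrat 3 lay inside the range of the lab rats and the other woodrats below it. The means of 212 ± 116 and 352 ± 66.8 CPM (SD, n = 3 each) gave a log2 fold change of -0.73 (standard error 0.40, 95% interval from -1.63 to 0.17, FDR = 0.171, edgeR quasi-likelihood test).

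Pkp2 (ENSMUSG00000041957.14), the plakophilin of simple epithelia and of the cardiac intercalated disc, behaved differently. It had 88, 57 and 14 reads in the woodrats 1, 2 and 3 and 2, 0 and 2 reads in the lab rats 1, 2 and 3, which is 17.2, 7.91 and 1.66 CPM against 0.248, 0 and 0.385 CPM. Every woodrat lay above every lab rat, and each lab rat was below the level of 3 reads. The ratio of the summed reads, corrected for library size, was 36.9 (95% interval from 14.1 to 137, counting error only).

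The log2 fold change of Pkp2 was 5.28 (standard error 1.06, 95% interval from 2.86 to 7.70, FDR = 0.00592, edgeR quasi-likelihood test). Leaving out woodrat 3 kept the call, with an FDR of 0.000930. Each of the other 5 omissions ended it, with an FDR of 0.0103 without woodrat 1, 0.0167 without woodrat 2, and 0.0220, 0.0207 and 0.0282 without lab rats 1, 2 and 3, although the log2 fold change stayed between 4.40 and 5.80. With the lab rats this close to 0 its size depends on the prior count, and it was 4.16 with a larger prior count of 2. Under a filter at 5 CPM in at least 3 animals the gene was not tested.

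Among the woodrats, those with more Pkp2 also had more smooth muscle marker reads, with woodrat 1 highest and woodrat 3 lowest in both. The lab rats were lower still in both, but their own orders differed. Lab rat 2 had 0 Pkp2 reads and 16746 CPM of smooth muscle markers, and lab rat 1 had 2 reads and 9912 CPM. Among the 5 markers of cardiac muscle, the 3 that were counted had few reads. Myh6 had 9, 7 and 15 reads in the woodrats and 0 in each lab rat, while Tnni3 and Nppa had at most 2 reads in any animal. Summed over the list they reached between 1.11 and 2.34 CPM in the woodrats and 0 in the lab rats. The 3 counted of 5 simple epithelium markers summed to between 25.2 and 55.0 CPM in the woodrats and between 238 and 330 CPM in the lab rats, a sum carried by Epcam in the lab rats. The keratins of that list went the other way or were sparse. Krt19 counted 49, 210 and 189 reads for woodrats 1, 2 and 3, against 1, 3 and 11 for lab rats 1, 2 and 3. It was called higher in the woodrats (log2 fold change 4.59, FDR = 0.00319, edgeR quasi-likelihood test), and its lowest woodrat was the animal with the most Pkp2. Krt19 needed the woodrats to pass the filter on low counts, with 0.124, 0.496 and 2.12 CPM in lab rats 1, 2 and 3 after TMM. Krt18 had 43, 3 and 9 reads in the woodrats against 4, 2 and 4 and was not tested. The 5 endothelial markers summed to between 50.6 and 97.4 CPM in the woodrats and between 108 and 115 CPM in the lab rats. The part of these other cell types in the Pkp2 result was not tested.

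Desmoplakin (Dsp, ENSMUSG00000054889.8) is the plakin that ties the plaque to the keratin filaments. It had 419, 1168 and 3500 CPM in the woodrats 1, 2 and 3 and 1655, 1558 and 905 CPM in the lab rats 1, 2 and 3. The lowest and the highest of the 6 animals were both woodrats. The means of 1696 ± 1607 CPM and 1373 ± 408 CPM (SD, n = 3 each) gave a log2 fold change of 0.31 (standard error 0.67, 95% interval from -1.23 to 1.84, FDR = 0.744, edgeR quasi-likelihood test). Without woodrat 3 the log2 fold change was -0.79.

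Perp (ENSMUSG00000019851.7) is a tetraspan membrane protein that desmosomes of stratified epithelia need and a target gene of p63 and p53. It had 96.3, 390 and 923 CPM in the woodrats 1, 2 and 3 and 984, 930 and 986 CPM in the lab rats 1, 2 and 3. All 3 woodrats lay below all 3 lab rats, yet woodrat 3 missed the lowest lab rat by a small margin. Its log2 fold change was -1.04 (standard error 0.65, 95% interval from -2.53 to 0.45, FDR = 0.232, edgeR quasi-likelihood test). Perp and Pkp2 were the 2 components of 10 whose groups did not overlap, against 56.2% of all tested genes (28.8% with the woodrats above, as Pkp2, and 27.4% with the lab rats above, as Perp).

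**Figure D2:**
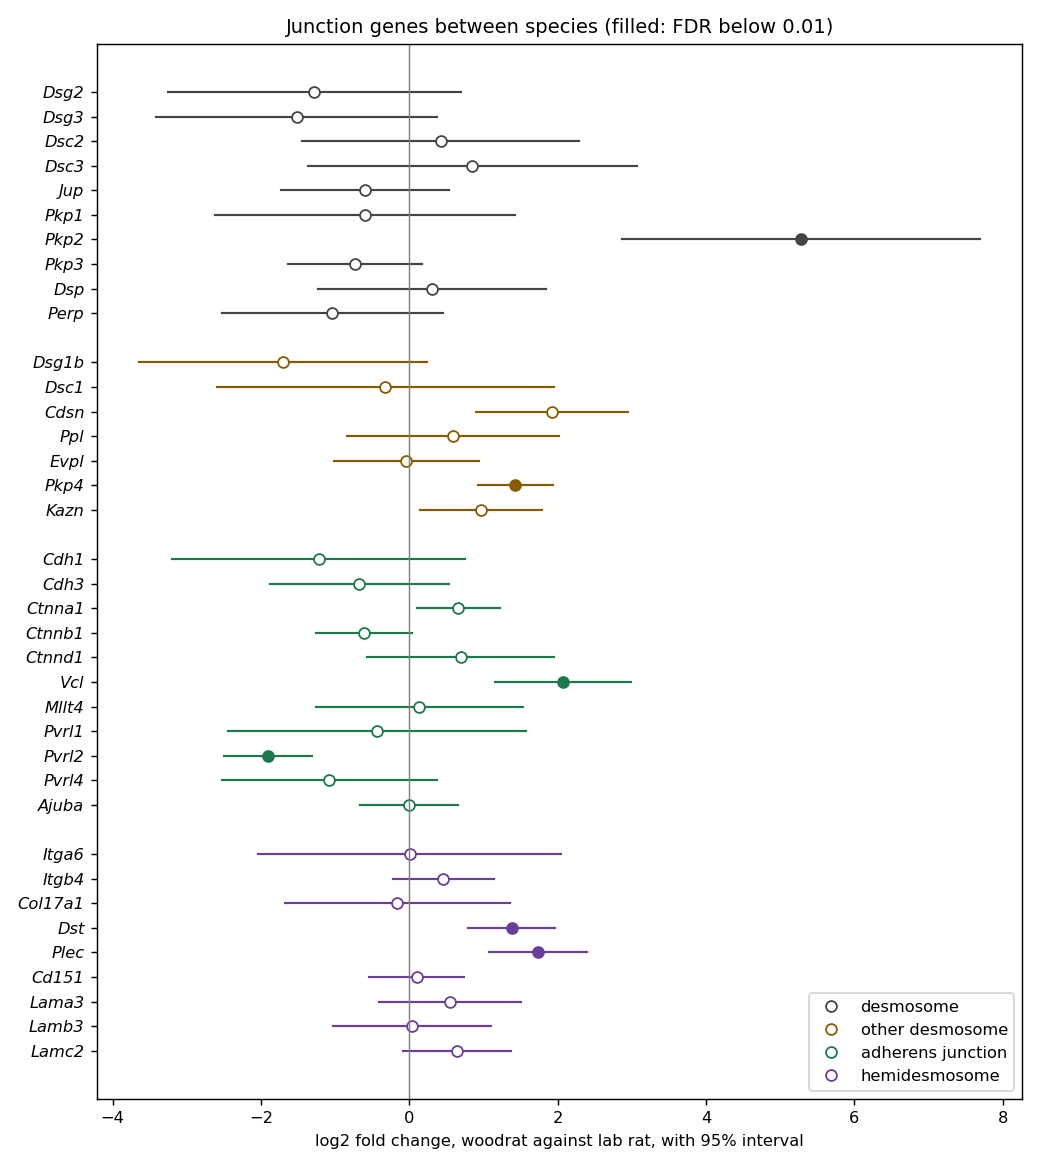
Log2 fold changes (x axis, positive toward woodrats) with 95% intervals for the 10 desmosome components and for the other desmosome, adherens junction and hemidesmosome genes tested. Filled points passed an FDR of 0.01, and among the desmosome components this was Pkp2 alone.

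The spread between woodrats was the main feature of these transcripts. From the lowest to the highest woodrat, the components differed by 2.84-fold for Pkp3, 4.50-fold for Jup, 8.35-fold for Dsp, 9.58-fold for Perp, 22.2-fold for Dsg3, 22.5-fold for Pkp1 and 43.2-fold for Dsc3. The median over the 10 components was 10.9-fold, beside 1.66-fold over all tested genes. Only 2.47% of tested genes spread as widely between woodrats as Dsc3 did, and 5.38% as widely as Dsp.

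Lab rats were more alike, with a median of 2.47-fold over the components, beside 1.66-fold over all tested genes. Jup and Perp differed by only 1.05-fold and 1.06-fold between lab rats, and 98.8% and 98.5% of tested genes differed at least as much. Pkp2, with 0 reads in lab rat 2, has no finite ratio. The widest of the other 9 were Dsc2 (4.11-fold), Dsc3 (3.76-fold), Dsg2 (3.58-fold), Dsg3 (2.70-fold) and Pkp1 (2.25-fold), all of them lowest in lab rat 3. This animal was the lowest lab rat for 7 of the 10 components, against 46.1% of all tested genes.

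The same woodrats stood at the ends for nearly every component. Woodrat 3 was above woodrat 2 and woodrat 2 above woodrat 1 for 9 of the 10, against 26.8% of all tested genes. Pkp2 had the opposite order. The summed squamous epithelium markers had the order of the 9 components, with 25752, 45357 and 73610 CPM in the woodrats 1, 2 and 3, and the summed smooth muscle markers had the order of Pkp2. Among the squamous markers, Krt10 (3280, 1666 and 15990 CPM) and Lgals7 (2283, 2366 and 2183 CPM) did not follow that order, while the others did. The median spread of these markers between woodrats was 2.79-fold, beside 10.9-fold for the components. The summed CPM of the 10 components was 986, 2615 and 7023 in the woodrats 1, 2 and 3 and 4822, 4596 and 3716 in the lab rats 1, 2 and 3. The part of tissue makeup in this spread was not tested.

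Part of the spread was shared with other epithelial genes. Each library was scaled to the geometric mean of 10 epithelial genes that are not among the components (Krt5, Krt14, Krt15, Trp63, Col17a1, Itgb4, Itga6, Cdh1, Cdh3 and Sfn) in place of TMM. With TMM these 10 genes themselves spread unevenly between woodrats, from 1.57-fold for Krt14 to 30.3-fold for Trp63. Cdh1 and Cdh3 belong also to the adherens junction list below, and Col17a1, Itgb4 and Itga6 to the hemidesmosome list. On this scale the spread between woodrats narrowed to 1.28-fold for Jup, 1.45-fold for Dsp, 1.67-fold for Perp and 2.02-fold for Pkp3. It stayed wider for Dsc2 (3.06-fold), Dsg3 (3.87-fold), Pkp1 (3.92-fold), Dsg2 (5.22-fold) and Dsc3 (7.53-fold), all again lowest in woodrat 1 except Dsg2. For Pkp2, which was highest in woodrat 1, it grew to 59.6-fold. Relative to TMM the scaling factors were 0.324, 0.897 and 1.86 in the woodrats 1, 2 and 3, so woodrat 1 is raised and woodrat 3 lowered. A gene that is even between woodrats with TMM is thereby widened, as Pkp4, another desmosome gene, was from 1.05-fold to 5.46-fold. The spread of all tested genes on this scale was not computed.

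**Figure D3:**
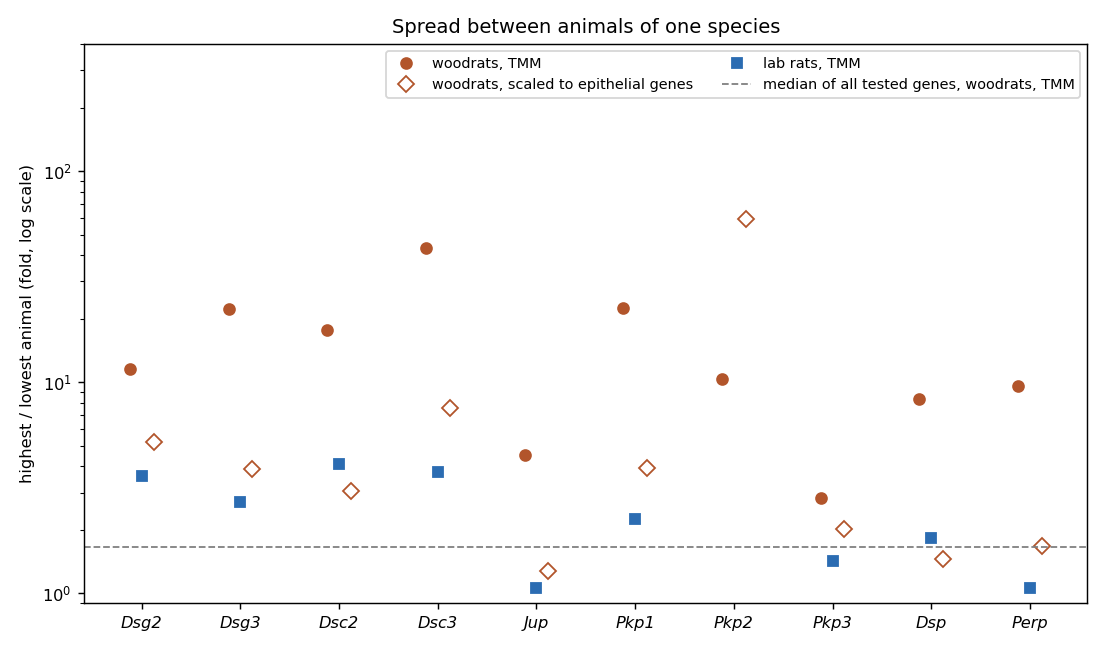
Ratio of the highest to the lowest animal of a species (y axis, log scale) for each desmosome component, with filled circles for woodrats and squares for lab rats after TMM normalization (no lab rat point for Pkp2, since lab rat 2 had 0 reads), open diamonds for woodrats after scaling to 10 epithelial genes, and a dashed line at the median of all tested genes in the woodrats, 1.66. Scaling brings Jup, Dsp and Perp down to between 1.28 and 1.67, while Dsc3 stays at 7.53. The dashed line belongs to the TMM values, and no such median was computed for the scaled values.

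On the epithelial scale the animals of the 2 species separated for 4 components, Dsp, Dsg3, Perp and Pkp2, against 31.7% of all tested genes. Scaled Dsp was 1296, 1302 and 1883 in the woodrats and 1227, 1222 and 840 in the lab rats, so every woodrat was above every lab rat by a narrow gap. Scaled Dsg3 was 9.06, 26.5 and 35.0 in the woodrats and 82.8, 88.1 and 38.6 in the lab rats, with every woodrat below. Of the 10, Pkp2 was called on this scale, higher in the woodrats, against 8.14% of tested genes and 10.3% in either direction (FDR = 1.11e-06, edgeR quasi-likelihood test), and the others had an FDR of 0.187 or more. Pkp2 had passed the filter on low counts only through the woodrats. Its log2 fold change was 6.78 on this scale and 5.28 with TMM, since the scaling raises woodrat 1, where Pkp2 was highest. Single animals were not left out on this scale. This scaling moves the median log2 fold change of all tested genes to 0.918, and relative to that median Dsp was at -0.47, Dsg3 at -2.47, Perp at -1.87 and Pkp2 at 5.86.

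Ratios of 2 transcripts within an animal do not depend on how a library is scaled. They are compared here between animals only, since reads were not divided by transcript length, and the pairs were chosen after their values were seen. Divergence of either gene from mouse cannot be told apart here from a difference in level. Dsg3 had 0.556, 0.309 and 0.286 reads per read of Dsc3 in the woodrats 1, 2 and 3 and 1.35, 1.66 and 1.89 in the lab rats 1, 2 and 3. Every woodrat lay below every lab rat. With 0.5 reads added to each count, the mean log2 ratio was -1.44 ± 0.54 (SD, n = 3) in the woodrats and 0.70 ± 0.24 (SD, n = 3) in the lab rats, a 4.40-fold difference. The log2 difference stayed between -2.44 and -1.96 when any 1 animal was left out.

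The ratio of Dsg3 to Dsc2 differed by 4.44-fold, with 1.88, 2.09 and 2.37 in the woodrats and 9.57, 7.46 and 11.4 in the lab rats. The Dsg2 to Dsc2 ratio was also lower in every woodrat, at 0.250, 0.0366 and 0.164 against 0.532, 0.374 and 0.474, although few reads of Dsg2 lie behind it. For the remaining desmoglein to desmocollin pair among the components, Dsg2 to Dsc3, the ratios were 0.0741, 0.00542 and 0.0197 against 0.0752, 0.0833 and 0.0789 and overlapped once 0.5 reads were added to each count. Between these forms of 1 family the ratios overlapped. Dsc2 to Dsc3 was 0.296, 0.148 and 0.121 in the woodrats and 0.141, 0.223 and 0.167 in the lab rats, and Dsg2 to Dsg3 had a mean log2 ratio of -4.03 in the woodrats and -4.32 in the lab rats.

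The forms of the upper layers gave the same direction. Dsg1b, a desmoglein of the differentiated layers, had 2.20, 1.45 and 1.12 reads per read of Dsc1, the desmocollin of those layers, in the woodrats and 2.68, 3.02 and 4.87 in the lab rats. The log2 difference was -1.16, or 2.23-fold. Dsg1a and Dsg1c were removed from the mouse reference by the authors as paralogs, so Dsg1b may hold reads of all Dsg1 genes. Dsc1 to Dsc3, upper to lower form, was 3.59, 1.50 and 2.88 in the woodrats and 5.56, 5.97 and 5.89 in the lab rats, whereas Dsg1b to Dsg3, at 14.2, 7.03 and 11.3 against 11.0, 10.8 and 15.2, overlapped between the species.

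Of the 45 ratios among the 10 components, 18 (40.0%) did not overlap between the species, and 12 of the 36 without Pkp2 (33.3%). Over all pairs of tested genes this was so for 57.0%. The share was below that of all pairs, so a separated ratio is common in these data. Pkp2 took part in 6 of the 18 and Dsp in 5. Reads of Dsp made up 45.7 ± 3.8% (SD, n = 3) of the reads of the 10 components in the woodrats and 30.9 ± 5.6% (SD, n = 3) in the lab rats, without overlap. For Perp the shares were 12.6 ± 2.6% and 22.4 ± 3.6%, also without overlap, and for Dsg3 they were 0.711 ± 0.358% and 1.96 ± 0.731%, again without overlap. Pkp2 was the fourth component of the 10 whose shares did not overlap, and no background over all tested genes was computed for shares. The shares of an animal add up to the whole, so a larger share of Dsp leaves less for the others. The separations of the shares are therefore not independent results. Dsp had 4.35, 3.00 and 3.79 reads per read of Perp in the woodrats and 1.68, 1.67 and 0.918 in the lab rats.

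**Figure D4:**
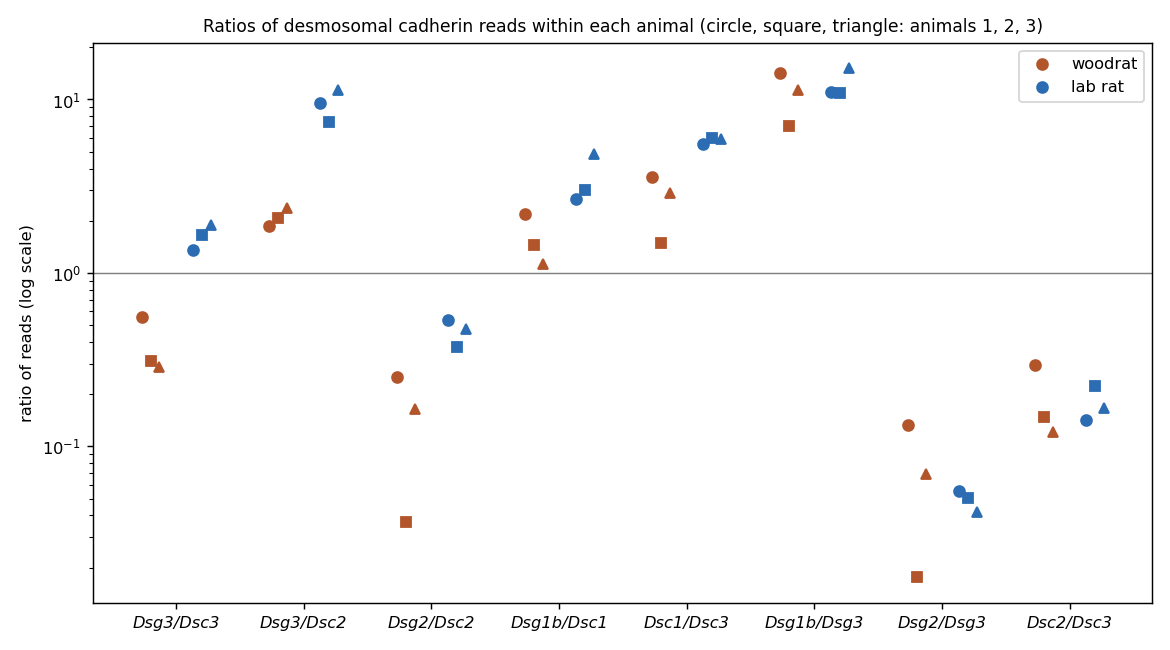
Ratio of reads of 2 desmosomal cadherins within each animal (y axis, log scale) for 8 pairs, with circles, squares and triangles for animals 1, 2 and 3 of each species. All 5 pairs at the left separate the species with the lab rats above, among them Dsg3 to Dsc3 at 0.286 to 0.556 in the woodrats and 1.35 to 1.89 in the lab rats, and the 3 pairs at the right overlap. The pairs were chosen after their values were seen, and 57.0% of all pairs of tested genes separate the species in either direction.

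Other desmosome genes were examined from a list of 10, of which 7 were counted and tested (Dsg1a, Dsg1c and Dsg4 were not analysed here). Of the 7, Pkp4 was higher in the woodrats, against 10.3% of all tested genes, and none was lower, against 9.71% (edgeR quasi-likelihood test, FDR below 0.01). At an unadjusted p below 0.05 in this test, 0 of the 7 were lower, beside 2989 of all 12603 tested genes. Under DESeq2, 0 were lower at an FDR below 0.01, with Dsg1b at an FDR of 0.0425 and a log2 fold change of -1.75. Pkp4, an armadillo protein found at both desmosomes and adherens junctions, had 94.1, 98.7 and 99.1 CPM in the woodrats and 40.3, 37.9 and 30.4 CPM in the lab rats, a log2 fold change of 1.42 with its standard error of 0.22 (FDR = 0.00229). Unlike the 10 components, it hardly varied between woodrats.

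Dsc1 had 18.9, 115 and 656 CPM in the woodrats and 459, 403 and 129 CPM in the lab rats (log2 fold change -0.33, FDR = 0.818, edgeR quasi-likelihood test). The cornified envelope plakins periplakin (Ppl) and envoplakin (Evpl), which also attach at desmosomes, had log2 fold changes of 0.59 (FDR = 0.480) and -0.04 (FDR = 0.949) in the same test. Corneodesmosin (Cdsn), the adhesive glycoprotein added to desmosomes of the cornified layer, had 621, 654 and 1396 CPM in the woodrats and 338, 221 and 145 CPM in the lab rats. Its log2 fold change of 1.92 had an FDR of 0.0110 in this test, just above the threshold of 0.01, and it passed under DESeq2 (FDR = 8.83e-05).

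Adherens junctions bind neighbouring cells through classical cadherins tied to actin. Of 11 such genes tested, 1 was higher and 1 lower in the woodrats, close to the 10.3% and 9.71% of all tested genes. Vinculin (Vcl), an actin linker that smooth muscle also holds in plenty, had 619, 364 and 297 CPM in the woodrats and 121, 125 and 58.6 CPM in the lab rats, a log2 fold change of 2.07 with its standard error of 0.40 (FDR = 0.00526, edgeR quasi-likelihood test). Pvrl2, which encodes nectin-2, had 15.0, 20.7 and 19.5 CPM in the woodrats and 58.1, 64.7 and 85.1 CPM in the lab rats, a log2 fold change of -1.91 with its standard error of 0.26 (FDR = 0.00141). E-cadherin (Cdh1) was not called (FDR = 0.288).

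Hemidesmosomes anchor the basal cells to the basement membrane. Of 9 genes tested, none was lower in the woodrats at an FDR below 0.01 (edgeR quasi-likelihood test), against 9.71% of all tested genes. Under DESeq2, 0 were lower at an FDR below 0.01. At an unadjusted p below 0.05 in the edgeR test, 0 were lower, beside 2989 of all 12603 tested genes. In the edgeR test 2 of the 9 were higher in the woodrats at an FDR below 0.01, against 10.3%. These were the plakins plectin (Plec), with 733, 435 and 565 CPM against 182, 182 and 157 CPM, and dystonin (Dst), with 539, 425 and 457 CPM against 193, 199 and 154 CPM. Their log2 fold changes were 1.73 (standard error 0.29, FDR = 0.00289) and 1.38 (standard error 0.26, FDR = 0.00437). Integrins alpha 6 and beta 4 and collagen XVII, the receptors of the structure, were not called.

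Vcl, Plec, Dst and Pkp4 were all higher in the species with more smooth muscle marker reads, and the part of muscle in these calls was not tested. On the epithelial scale Vcl kept its call, whereas Plec (FDR = 0.0237), Dst (FDR = 0.0510), Pkp4 (FDR = 0.0430) and Pvrl2 (FDR = 0.356) did not (edgeR quasi-likelihood test). Their log2 fold changes on that scale were 2.85, 2.43, 2.37 and -1.13, so the first 3 were larger than with TMM, on a scale where the median of all tested genes is 0.918. Among the library omissions, lab rats 1 and 2 each ended the calls of Vcl, Plec, Dst and Pkp4, lab rat 3 ended those of Vcl, Plec and Dst, and woodrat 2 those of Vcl, Dst and Pkp4. Their FDR then lay between 0.0103 and 0.0214, while over all 6 omissions the log2 fold changes stayed between 1.70 and 2.27 for Vcl, 1.52 and 1.86 for Plec, 1.27 and 1.45 for Dst, and 1.31 and 1.51 for Pkp4. Pvrl2 kept its call in all 6 omissions.

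The tested genes outside the 10 whose log2 CPM followed the mean of the components most closely over the 6 animals were Pgap1 (Pearson r = 0.996), Cyb561 (r = 0.994), Limk2 (r = 0.992), Inadl (r = 0.991) and Dsc1 (r = 0.991). These values are a description over 6 animals of 2 species, whose summed squamous epithelium markers also differed. Dsc1 is itself a desmosomal cadherin, Limk2 is a kinase of cofilin, and Inadl encodes a scaffold of tight junctions. In all, 2.92% of the 12593 genes outside the components had an r of 0.9 or more. Pkp2 ran against the mean of the components, with r = -0.68.

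Leaving out animals showed which of them set the direction. With all 6 animals, 4 components had a positive and 6 a negative log2 fold change. Without woodrat 3, the remaining woodrats gave 9 negative values and only Pkp2 positive, with a median of -1.27, Dsg2 was called lower, against 10.1% of all tested genes called lower in that fit, and 6 of the 10 were lower at an unadjusted p below 0.05, against 25.0% (edgeR quasi-likelihood test). Without woodrat 1 the median was -0.14, and Dsc3 stood at 1.41, Dsp at 0.77 and Pkp1 at -0.07. In that fit 2 of the 10 were higher and 0 lower at an unadjusted p below 0.05 (edgeR quasi-likelihood test), with no background computed. Woodrat 3 was the highest and woodrat 1 the lowest woodrat for 9 of the 10. Leaving out woodrat 3 therefore lowers the woodrat mean of these 9 by construction, and leaving out woodrat 1 raises it. The 9 varied together between woodrats, so they are not separate results.

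**Figure D5:**
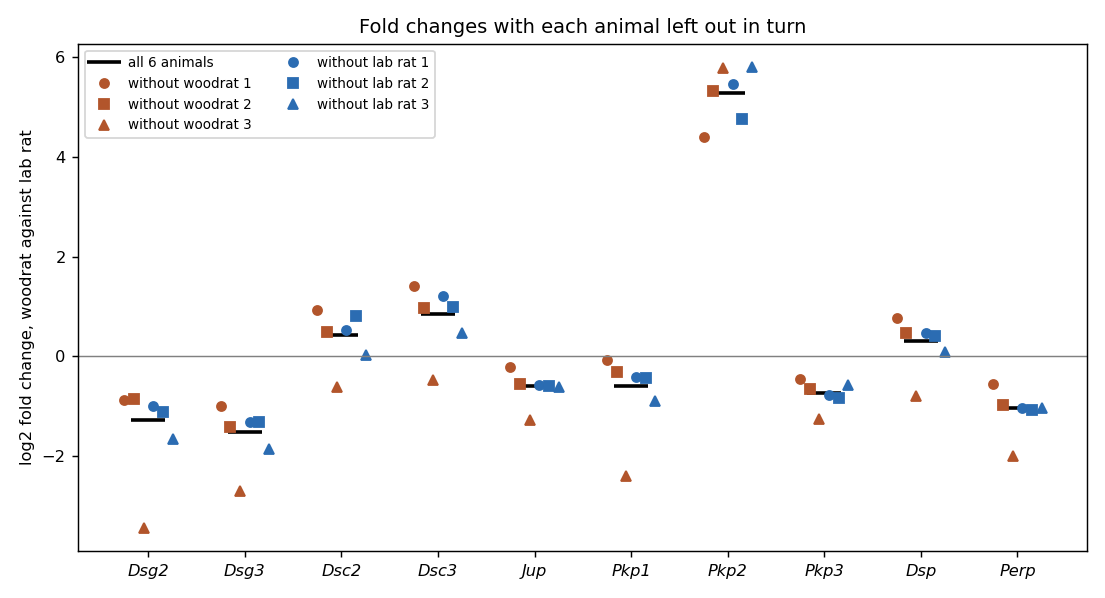
Log2 fold change of each desmosome component (y axis, positive toward woodrats) with all 6 animals (black bars) and with each animal left out (symbols). The fits without woodrat 3 are the lowest for the 9 components other than Pkp2, down to -3.44 for Dsg2, and those without woodrat 1 are the highest or close to it, while every Pkp2 value lies between 4.40 and 5.80.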

How the data were processed

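Total RNA from the foregut of 3 woodrats and 3 lab rats was made into stranded polyA libraries. The authors trimmed the read pairs (Trimmomatic), merged them (FLASH), aligned them to the coding transcripts of mouse (GENCODE M7) by cross_match, collapsed alignments to genes, and deposited raw counts of uniquely assigned reads, without normalization. Tool versions were not given in the sources used here. Reads of both species were mapped to mouse, so divergence of a gene from mouse can change its count. Isoforms were not separated.

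Counts were joined with pandas 2.3.3 and tested in R 4.3.3 with edgeR 4.0.16: TMM factors, the quasi-likelihood F-test of the older method, no covariate beside species, 0.125 as prior count, Benjamini-Hochberg adjustment over 12603 genes and an FDR threshold of 0.01. The standard error is the log2 fold change divided by the square root of F. The fit was tested on simulated data in which every gene had the same dispersion. That test does not show how the fit performs for genes as variable between animals as these components. The animals are separate individuals. The components and lists were chosen with earlier results of these data known. Named were the 10 components, called genes of the junction lists with Ppl, Evpl and Dsc1, and the 5 genes most alike. Dsg1b, Cdsn, Cdh1, Itga6, Itgb4 and Col17a1 were named after their values were seen. Alternatives were other filters, scalings, tests (DESeq2 1.42.0), a replicate block and each animal left out. No sequences or coordinates are given, since no reference was used here.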

Additional observations from a re-analysis of the deposited data

How the results depend on the processing

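Over all alternatives, 274 of the log2 fold changes kept their direction and side of the threshold, 29 lost and 5 gained a call, and 10 changed sign. Of the counts of called genes, 97 stayed equal or within 1.5 times, many of them counts of 0 that stayed 0, while 25 were weaker and 6 stronger. The count of desmosome components higher in woodrats was 0 under the 5 CPM filter, where Pkp2 and Dsg2 were not tested, and between 0 and 1 when 1 animal was left out; the count lower was between 0 and 1. Other desmosome genes higher numbered 2 without a filter, under DESeq2, under the edgeR 4 method and at an FDR below 0.05, 0 under epithelial scaling and 0 to 1 leaving out 1 animal, and those lower 0 to 1. Adherens junction genes higher numbered 0 with total counts and 0 to 1 leaving out 1 animal, and those lower 0 under epithelial scaling. Hemidesmosome genes higher numbered 0 under epithelial scaling and 0 to 2 leaving out 1 animal. The animals with the same replicate number did not deviate together (correlations from -0.289 to -0.0881 over 3 pairs, and no animal correlated best with its own number), so the numbers were not treated as pairs. With a replicate block, 0 components, 0 other desmosome genes, 0 adherens junction genes and 0 hemidesmosome genes were called higher, Pkp2 had a log2 fold change of 5.15 (FDR = 0.0174, edgeR quasi-likelihood test), and Dsc2 and Dsp turned to -0.11 and -0.19. Signs also turned without woodrat 3 for Dsc2 (-0.62), Dsp (-0.79), Dsc3 (-0.48) and Ppl (-0.22), without woodrat 1 for Dsc1 (0.22) and Evpl (0.32), and for Evpl without lab rat 3 (0.08) and under epithelial scaling (0.41). Log2 differences in the ratios turned for Dsg1b to Dsg3 without woodrat 2 (0.036), Dsg2 to Dsg3 without woodrat 1 (-0.40) and Dsc2 to Dsc3 without woodrat 1 (-0.39), lab rat 1 (-0.14) or lab rat 3 (-0.0094). Leaving out 1 animal, the highest log2 fold changes were 0.93 for Dsc2, 0.77 for Dsp, 1.41 for Dsc3 and 1.02 for Ppl, all without woodrat 1, and the lowest for Dsc1 was -2.30 without woodrat 3. The other ends of the ranges were -0.45 for Dsg1b to Dsg3, 1.09 for Dsg2 to Dsg3 and 0.29 for Dsc2 to Dsc3. The causes were not tested. Over all tested genes, 2516 were called here, 716 with the block, 3916 under DESeq2, 5026 at an FDR below 0.05, 1298 under epithelial scaling and between 898 and 2626 leaving out 1 animal. Of the called genes, 51.3% were higher in woodrats with TMM, 79.0% under epithelial scaling and 44.7% with total counts. With 3 animals per species the intervals were wide, so the lack of a call does not show that a component was equal between the species. Reads were few for Dsg2, with 2 and 3 in woodrats 1 and 2, and for Pkp2 in the lab rats, with 2, 0 and 2. The ratio pairs and their omissions were chosen after seeing the data.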
